A study of Mus musculus with 4 samples.

Results

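The 9 genes described here encode transcription factors that establish and maintain hepatocyte identity: Hnf4a, Foxa1, Foxa2, Foxa3, Cebpa, Cebpb, Onecut1, Nr1h4 and Prox1. They were chosen by name, and all 9 were found among the 21755 protein-coding genes of chromosomes 1 to 19 and X. Each gene was placed by its start in mm10 into the topologically associating domains (TADs) of AML12 cells, a non-tumour hepatocyte line established from mice transgenic for human transforming growth factor alpha. The cells were grown as a flat layer (2D, 2 samples) or embedded in Matrigel (3D, 2 samples), and every sample was arrested at the G1/S boundary with 1 mM hydroxyurea, for 24 h in 2D and 36 h in 3D. In situ Hi-C was performed on all 4 samples, and the replicates of a culture were combined before TADs were called. Per the study's methods, 2D cells were cross-linked directly, whereas 3D spheroids were first collected with a recovery solution. The 3D data also held fewer valid read pairs. The 2D and 3D lists therefore differ at least in growth dimension, length of the arrest, cell recovery and depth, and these cannot be told apart.

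The values are TAD start and end positions on a grid of 40 kb bins, 1 list per culture, with 4467 TADs in 2D and 4355 in 3D. A border is the start or end of a TAD, and stretches between TADs are called unassigned. No read count accompanies a TAD, so the depth behind each TAD is unknown, and no spread between replicates exists for any value. Differences between the cultures are given as descriptions, with no test, and a difference of 1 bin is the smallest that the lists can hold. Because the lists hold no expression values, the hepatocyte label of the cells could not be checked against marker genes.

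TADs are stretches of a chromosome whose sequences contact each other more often than they contact the flanking sequence, and their borders are often bound by CTCF, a zinc finger protein that halts the loop-extruding cohesin complex. Enhancers mostly act on promoters of the same TAD. The hepatocyte factors belong to several DNA-binding families that bind each other's promoters and enhancers: the nuclear receptors Hnf4a and Nr1h4, the forkhead pioneer factors Foxa1 to Foxa3, the leucine zipper proteins Cebpa and Cebpb, the cut-homeodomain protein Onecut1 and the homeodomain protein Prox1.

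All 9 gene starts lay inside a TAD in 2D and in 3D, and all 9 gene bodies lay whole within that TAD. Of all protein-coding gene starts, 76.7% lay inside a TAD in 2D, 83.5% in 3D and 72.7% in both. A whole gene body within 1 TAD was found for 65.7% of all protein-coding genes in 2D and 72.7% in 3D. These shares include genes whose start lay outside TADs, which cannot pass. Of the genes whose start lay inside a TAD, 14286 of 16684 passed in 2D and 15812 of 18163 in 3D. For 7 of the 9 genes, the TADs that held the start in 2D and in 3D matched, with both ends within 40 kb. Such a match held for 49.7% of all protein-coding genes, and for 68.3% of the 15824 whose start lay inside a TAD in both lists. The exceptions were Foxa3, whose start lay between a 2D and a 3D border only 40 kb apart, and Cebpb, whose TAD of 240 kb in 2D stood against one of 600 kb in 3D. The match was exact for Foxa2, Cebpa and Onecut1, which are 33.3% of the genes, against 35.1% of all protein-coding genes. A share of 9 genes moves by more than 10 percentage points with each gene, and these shares are therefore only set beside the background.

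**Figure D1:**
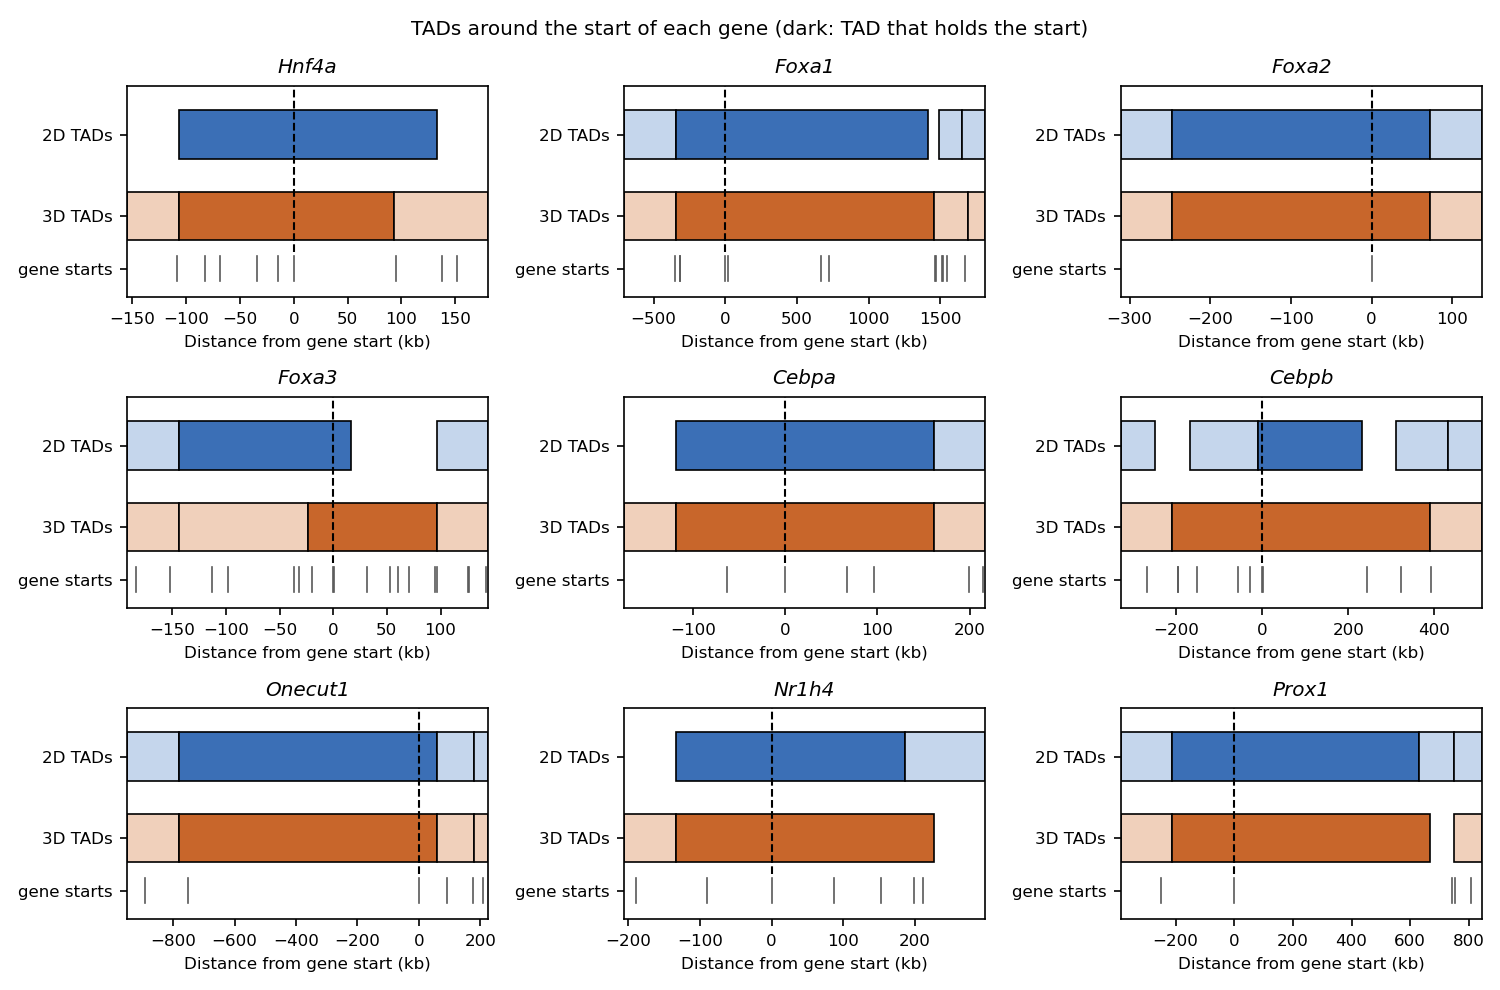
Map of the TADs around the start of each gene in 2D (blue, upper lane) and 3D (orange, lower lane), with distance from the gene start in kb on the horizontal axis and the starts of protein-coding genes as ticks. The dark box is the TAD that holds the gene start, light boxes are other TADs and blank stretches are unassigned. The dark boxes coincide within 40 kb at both ends for 7 genes and do not for Foxa3 and Cebpb.

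The borders of these TADs were searched for a CTCF-type motif, 12 bases that read CCA, any 2 bases and AGGGGGC, on both strands of the 80 kb centred on each border (GRCm38, the assembly that mm10 names). The motif overlaps no other motif searched except its looser form, in which the third base is also free. A match was present at 10 of the 26 distinct border positions that bound a TAD of these genes, and at 3 of the 10 positions that bound it in both lists. Of all windows of 80 kb on the grid 17.8% held a match, and of all borders 30% did in 2D and 29.8% in 3D. Some of the matches near borders of Prox1, Hnf4a, Cebpa, Cebpb and Foxa3 are given here as examples. The lower borders of Prox1, Hnf4a and Cebpa were at the same position in both lists. The matches of Cebpb, Foxa3 and the upper end of Hnf4a were picked after their values were seen. Each is read 5′ to 3′ on the strand of the match, with the motif in capitals.
Prox1, lower end in both lists, chr1:189959584-189959635, minus strand, intergenic: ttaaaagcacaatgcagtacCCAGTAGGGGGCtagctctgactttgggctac
Hnf4a, lower end in both lists, chr2:163410749-163410800, minus strand, intron of Oser1: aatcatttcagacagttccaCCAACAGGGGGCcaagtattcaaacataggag
Hnf4a, upper end in 3D, chr2:163586537-163586588, plus strand, intergenic: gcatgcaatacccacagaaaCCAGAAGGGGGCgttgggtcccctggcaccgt
Cebpa, lower end in both lists, chr7:35026866-35026917, plus strand, intron of Pepd: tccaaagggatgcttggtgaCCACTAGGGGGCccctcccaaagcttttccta
Cebpb, lower end in 2D, chr2:167688649-167688700, plus strand, intron of Tmem189: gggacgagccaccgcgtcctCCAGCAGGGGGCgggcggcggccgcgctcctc
Cebpb, lower end in 3D, chr2:167463129-167463180, minus strand, intron of Slc9a8: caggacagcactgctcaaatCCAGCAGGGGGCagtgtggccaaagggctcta
Foxa3, upper end in 2D, chr7:19073679-19073730, minus strand, intron of Rsph6a: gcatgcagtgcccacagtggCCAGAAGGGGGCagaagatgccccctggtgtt
The closest of these to its border was that of Prox1, 0.391 kb below the border, while that of Foxa3 lay 33.7 kb above it. At the upper end of the 3D TAD of Foxa3 there were 2 further matches, not printed, at 17.6 and 31 kb from the border. A further match, also not printed, lay 27 kb from the lower border of Cebpa, and matches at an end of Foxa1 and at the upper 3D end of Cebpb are not printed either. A match is a description of the letters and not evidence of binding.

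Hnf4a, an orphan nuclear receptor required for hepatocyte differentiation, extends from 163506808 to 163572910 on the plus strand of chromosome 2 and measures 66.1 kb. In 2D its start lay in a TAD of 240 kb, from 163400001 to 163640000. In 3D the TAD began at the same position and ended at 163600000, 40 kb lower, and measured 200 kb. The 2 TADs overlapped over 83.3% of their union. Oser1, Gdap1l1, Fitm2 and R3hdml started in the same TAD as Hnf4a in both lists. The start of Ttpal, which encodes an alpha-tocopherol transfer-like protein, lay 2.31 kb above the 3D border and so belonged to the TAD of Hnf4a in 2D, with 6 protein-coding gene starts, but to the next TAD in 3D, where 5 were left. In 2D the TAD was flanked by unassigned stretches of 80 kb on either side, and in 3D by TADs of 360 and 160 kb.

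The nearest border to the Hnf4a start was the lower one in 2D, at 107 kb, and the upper one in 3D, at 93.2 kb. Hnf4a is transcribed from the distal promoter P2, where the gene start of the annotation lies, and from the proximal promoter P1, which is the main one in adult liver. The principal coding transcript started at 163547188, 40.4 kb downstream of the gene start. This second start lay in the same TAD as the first in both lists, 92.8 kb from the nearest border in 2D and 52.8 kb in 3D. Both promoters thus shared a TAD in both cultures, and the 3D border lay closer to P1 by 1 bin.

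Nr1h4, the bile acid receptor FXR, extends from 89454234 to 89533585 on the minus strand of chromosome 10. Its TAD ran from 89400001 to 89720000 in 2D, a size of 320 kb, and to 89760000 in 3D, a size of 360 kb. The lower end was the same, and the TADs overlapped over 88.9% of their union. Gas2l3, Slc17a8 (a vesicular glutamate transporter) and Scyl2 shared the TAD with Nr1h4 in both lists, and Actr6 and Uhrf1bp1l joined it in 3D, which raised the number of starts from 4 to 6. The start lay 134 kb from the lower border in both lists. The principal transcript starts 26.9 kb inside the gene, in the same TAD in both lists, 107 kb from that border.

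The forkhead genes lay in TADs of unlike size. Foxa1 opens compacted chromatin at liver enhancers, and it extends from 57540628 to 57546916 on the minus strand of chromosome 12. It lay in the longest TAD of the 9 genes, 1760 kb in 2D and 1800 kb in 3D, longer than 93.0% and 92.9% of all TADs of the respective list. The TAD began at 57200001 in both lists and ended 1 bin apart, at 58960000 in 2D and 59000000 in 3D, with Sec23a spanning both ends. Its 6 protein-coding gene starts were the same in both lists: Prps1l3, Mipol1, Foxa1, Ttc6, the somatostatin receptor gene Sstr1 and Clec14a. With 3.41 starts per Mb in 2D and 3.33 in 3D, the TAD was gene-poor beside the median of 17.9 and 18.8 per Mb over all protein-coding genes inside TADs. The start lay 347 kb from the nearest border in both lists, the largest distance of the 9.

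Foxa2, which acts with Foxa1 in liver specification, extends from 148042877 to 148046969 on the minus strand of chromosome 2. Its TAD was identical in 2D and 3D, from 147800001 to 148120000, a size of 320 kb. Foxa2 was the only protein-coding gene that started in it. The same held for Prox1 in its TAD. Thus 2 of the 9 genes were the only protein-coding start of their TAD in each list. This was so for 4.63% of all protein-coding genes in 2D and 3.92% in 3D. Of the 31 further liver transcription factor genes described below, it was so for 5 (16.1%) in each list. The Foxa2 start lay 73.0 kb below the upper border. The TADs of 480 and 560 kb on either side were also the same in both lists, and at each end of the Foxa2 TAD 2 TADs met directly in 2D and in 3D.

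Foxa3, the third forkhead factor, extends from 19013284 to 19023538 on the minus strand of chromosome 7, in the most gene-dense surroundings of the 9. In 2D the start lay near the upper end of a TAD of 160 kb, from 18880001 to 19040000, which held 7 protein-coding gene starts. In 3D it lay near the lower end of a TAD of 120 kb, from 19000001 to 19120000, which held 9. The border beside the gene was thus 16.5 kb above the start in 2D, on the promoter side, and 23.5 kb below it in 3D, beyond the 3′ end of the gene. These borders were 40 kb apart and count as shared within 1 bin, but the gene lay between them. The 2D TAD did have a 3D counterpart within 40 kb at both ends, from 18880001 to 19000000, and that counterpart did not hold Foxa3. Counted this way, the TAD had a counterpart in the other list for 8 of the 9 genes in 2D, against 51.3% of all protein-coding genes, and for 7 in 3D, against 51.6%. In these shares a start outside TADs counts as having no counterpart. Of the starts inside a TAD, 11160 of 16684 had a counterpart in 2D and 11231 of 18163 in 3D.

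Of the 6 other genes in the 2D TAD of Foxa3, only Irf2bp1 and Sympk (a scaffold of the messenger RNA 3′ end processing machinery), which starts 0.839 kb from Foxa3, were also in its 3D TAD. They make up 33.3% of the other genes in 2D and 25% of those in 3D. Ccdc61, Nova2, Nanos2 and Mypop were together with Foxa3 in 2D and in the TAD below it in 3D. Rsph6a, Dmwd, Dmpk, Six5, Gm4969 and Fbxo46 were together with it in 3D and lay in an unassigned stretch of 80 kb in 2D. The 2D and 3D TADs overlapped over 40 kb, 16.7% of their union, the lowest of the 9 genes. The upstream sequence of Foxa3 held the looser form of the motif 111 bases before the RefSeq start, inside the 40 kb that both TADs cover. It is shown (RefSeq, GRCm38.p6, chr7:19023591-19023722, minus strand, 5′ to 3′, motif in capitals) because the 2D and 3D TADs of this start did not match.
Foxa3, upstream sequence: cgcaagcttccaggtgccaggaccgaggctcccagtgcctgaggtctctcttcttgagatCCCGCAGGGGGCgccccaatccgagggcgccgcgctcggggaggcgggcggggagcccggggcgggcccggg
This form, chosen after the data were seen, was found in 1.28% of 32851 RefSeq promoter windows (250 bases before to 50 after a start), and in 2 of the 13 windows of the 9 genes, 1 of Foxa3 and 1 of Cebpb.

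Cebpa, a leucine zipper factor that activates metabolic genes of the mature hepatocyte, extends from 35119293 to 35121928 on the plus strand of chromosome 7, 16.1 Mb above Foxa3. Its TAD was identical in both lists, from 35000001 to 35280000, a size of 280 kb. The TAD held the same 4 protein-coding gene starts in 2D and in 3D: its family member Cebpg, Cebpa, the amino acid transporter gene Slc7a10 and Lrp3. The start lay 119 kb from the lower border, which falls within Pepd, and 161 kb from the upper one, which falls within Gpatch1. The adjacent TAD above it, of 120 kb, was also the same in both lists. Below it lay an unassigned stretch of 80 kb in 2D and a TAD of 320 kb in 3D.

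Cebpb, the family member induced in the acute phase response and in liver regeneration, extends from 167688915 to 167690418 on the plus strand of chromosome 2. In 2D its start lay at the lower edge of a TAD of 240 kb, from 167680001 to 167920000, only 8.91 kb from the border. In 3D the TAD ran from 167480001 to 168080000, a size of 600 kb, and the start lay 209 kb from the nearest border. No 3D border lay within 40 kb of either end of the 2D TAD. The nearest 3D borders were 200 kb below its lower end and 160 kb above its upper end. The nearest 2D border had a 3D counterpart for 8 of the 9 genes, all but Cebpb. That share of 88.9% is close to the 85.2% over all protein-coding gene starts. The nearest 3D border had a counterpart in 2D for all 9 genes, against 88.7% of all starts. With only positions where 2 TADs meet taken as borders, in both lists, 4 of the 9 nearest 3D borders and 6 of the 9 nearest 2D borders had a counterpart, against 64.7% and 76.5% of all starts.

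In 2D the Cebpb TAD held the start of 1 other protein-coding gene, Tmem189, at 0.907 kb. The body of Tmem189 reaches across the 2D border, which leaves its start and its far end on opposite sides. In 3D the TAD held 8 other starts. Of the 7 genes that joined, Snai1 (a zinc finger repressor of epithelial genes), Ube2v1 and Gm20431 started in the adjacent 2D TAD of 160 kb. Rnf114 and Spata2 lay in the unassigned stretch beyond it, Ptpn1 (a phosphatase of the insulin receptor) in an unassigned stretch above the Cebpb TAD, and Ripor3 in a 2D TAD of 120 kb that lies partly outside the 3D TAD. Inside the 3D TAD, the 2D list had 4 borders, 3 of them more than 40 kb from its ends, 2 whole TADs and 120 kb of unassigned sequence.

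The motif match in the 2D window below Cebpb lay in the promoter itself, 234 bases before the RefSeq start and 8.67 kb above the 2D border. The strict motif was found in 0.371% of the RefSeq promoter windows and, of the 13 windows of the 9 genes, only in this one. The 3D list had no border there. The outer ends of the 3D TAD also had a match each within 40 kb, at 16.8 kb from the lower and 32.1 kb from the upper one. With the looser form, the closest match lay 0.133 kb from the 2D border below Cebpb, within Tmem189, and one also lay 0.706 kb from the lower border of Cebpa.

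**Figure D2:**
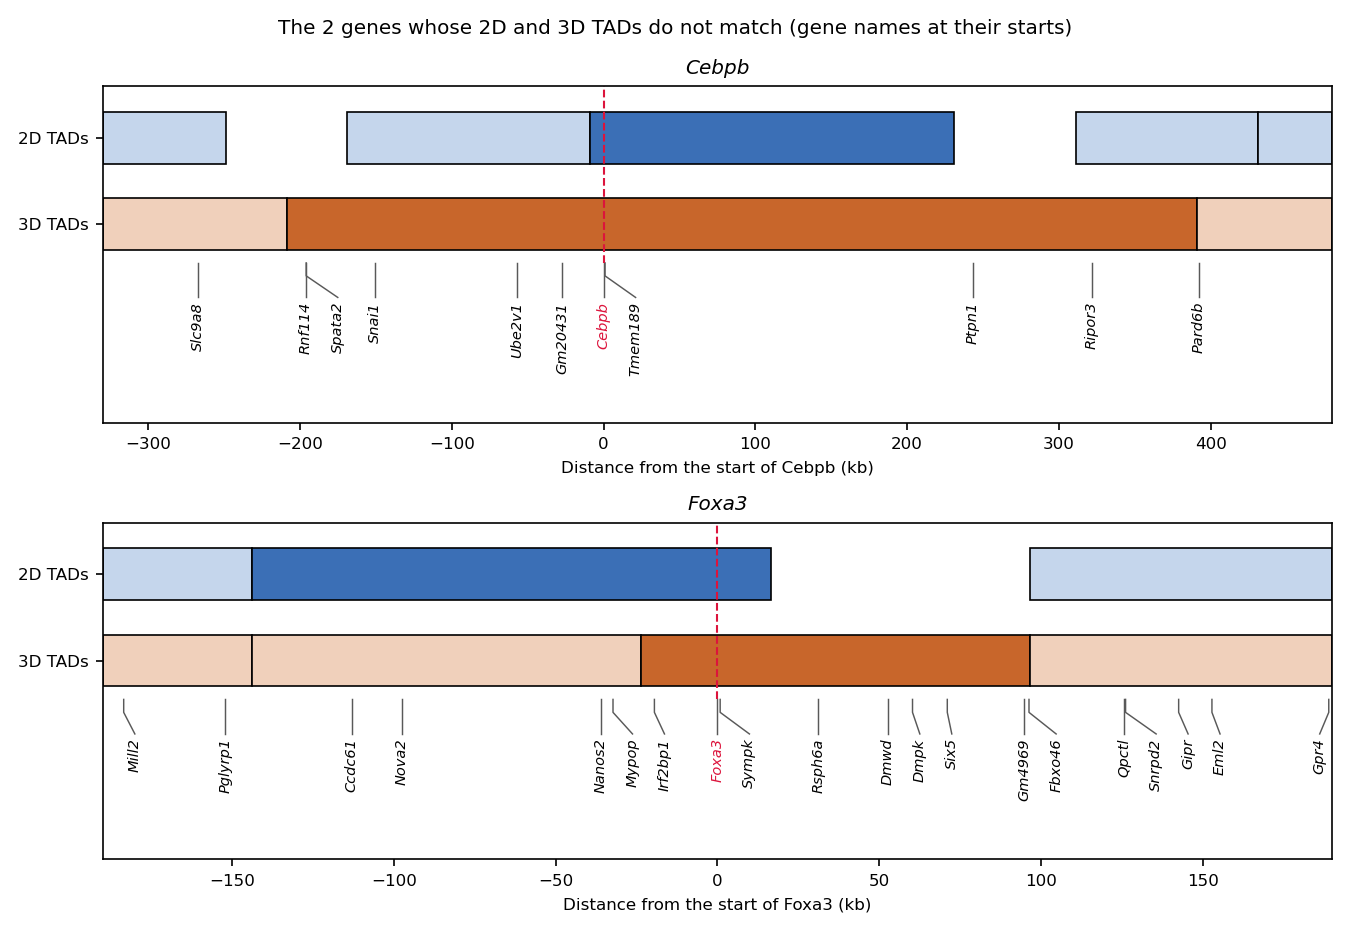
TADs around Cebpb (upper panel) and Foxa3 (lower panel) in 2D (blue) and 3D (orange), with distance from the gene start in kb and gene names at the starts of protein-coding genes. The 2D border 8.91 kb from the Cebpb start lies inside the 3D TAD of 600 kb, and the Foxa3 start lies between the 2D border above it and the 3D border below it.

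Onecut1, known as hepatocyte nuclear factor 6, binds the promoters of Hnf4a and Foxa2 in the developing liver, and it extends from 74861921 to 74891781 on the plus strand of chromosome 9. Its TAD was identical in 2D and 3D, from 74080001 to 74920000, a size of 840 kb. It held 1 other protein-coding gene start, that of Wdr72, which lies 30.4 kb from the lower border at the far end of the TAD. The Onecut1 start lay 58.1 kb from the upper border and 782 kb from the lower one. The adjacent TADs of 960 and 120 kb were also the same in both lists.

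Prox1 is needed for hepatoblasts to leave the liver bud, and the gene extends from 190118035 to 190170714 on the minus strand of chromosome 1. Its TAD ran from 189960001 to 190800000 in 2D, a size of 840 kb, and to 190840000 in 3D, a size of 880 kb, an overlap of 95.5% of the union. No other protein-coding gene started in it in either list. The start lay 211 kb from the lower border, which was at the same position in both lists. The upper end lay within Rps6kc1 in both lists.

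Set beside each other, the 9 starts lay at a median of 107 kb from the nearest border in 2D (range 8.91 to 347 kb) and 119 kb in 3D (23.5 to 347 kb). With only positions where 2 TADs meet taken as borders, the median rose to 161 kb in 2D and stayed at 119 kb in 3D, in the opposite order. Over all protein-coding gene starts the median was 53.6 kb in 2D (quartiles 22.5 and 132 kb) and 58.3 kb in 3D (23.8 and 141 kb). Within 40 kb of a border lay 2 of the 9 starts in 2D, Foxa3 and Cebpb, and only Foxa3 in 3D, against 41.1% and 38.7% of all starts. The genes near a border in 2D were thus those whose TADs did not match. The nearest border was at the same position in both lists for 6 of the 9 genes, against 62.7% of all, and differed for Hnf4a, Foxa3 and Cebpb.

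The TADs of the 9 genes had a median size of 320 kb in 2D and 360 kb in 3D, against 320 kb for all protein-coding gene starts inside TADs in each list. The size was larger in 3D for Foxa1, Cebpb, Nr1h4 and Prox1, smaller for Hnf4a and Foxa3, and equal for Foxa2, Cebpa and Onecut1. Of these differences, only the one at Cebpb exceeded 1 bin. The median number of protein-coding gene starts was 4 in 2D and 5 in 3D, against 5 and 6 over all starts inside TADs. The number was higher in 3D for Foxa3, Cebpb and Nr1h4, lower for Hnf4a and equal for the other 5.

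**Figure D3:**
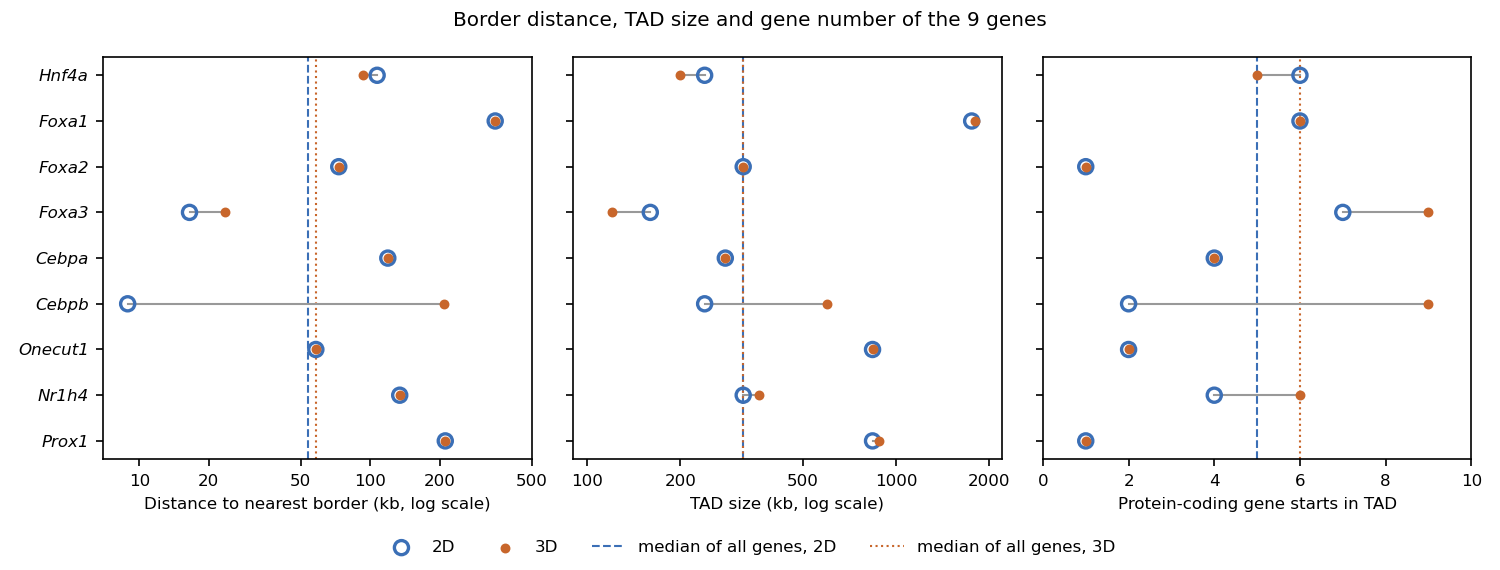
Distance of each gene start to the nearest border (kb, log scale), size of its TAD (kb, log scale) and number of protein-coding gene starts in the TAD, in 2D (open blue circles) and 3D (filled orange circles), with the medians over all protein-coding gene starts as vertical lines (starts inside TADs only for size and number). The circles coincide or lie close together for most genes, and those of Cebpb lie apart in all 3 panels, at 8.91 and 209 kb for the distance.

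The share of matches over all genes varied with TAD size. Of all starts in 2D TADs of 120 to 160 kb, 58.7% had a match in 3D, and 0 of 1 gene here (Foxa3) did. In 2D TADs of 200 to 600 kb the share was 72.9%, and 4 of 5 genes here matched (Hnf4a, Foxa2, Cebpa and Nr1h4, but not Cebpb). In longer TADs the share was 59.6%, and 3 of 3 genes here matched (Foxa1, Onecut1 and Prox1). At the level of TAD ends, 16 of the 18 ends in 2D had a 3D border within 40 kb, and the ends without one were both those of Cebpb. All 18 ends in 3D had a 2D border within 40 kb. Over all TADs, 83.6% of the 2D ends and 90% of the 3D ends did.

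The cultures differed in what lay beyond the TADs of these genes. In 2D, 11 of the 18 ends were positions where 2 TADs meet, against 64.4% of all TAD ends, and in 3D 16 of 18 were, against 72.3%. The unassigned stretches beside Hnf4a (on either side), Foxa1, Foxa3, Cebpa, Cebpb and Nr1h4 in 2D each measured 80 kb. In 3D, only Nr1h4 and Prox1 had such a stretch beside their TAD, also of 80 kb. At Hnf4a, Foxa1, Foxa3, Cebpa, Cebpb and the lower end of Nr1h4, the corresponding place in 3D was covered by TADs, at Foxa3 and Cebpb wholly by that of the gene itself and at Foxa1 over 40 kb by it.

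The same measures were taken for 31 further liver transcription factor genes, among them xenobiotic and lipid-sensing nuclear receptors and further family members. Of their starts, 22 lay inside a TAD in 2D and 28 in 3D, and all 22 lay inside a TAD in 3D as well. The TADs that held the start matched for 16 of the 31 (51.6%), close to the 49.7% of all protein-coding genes, and were identical for 10. Among the 22 inside a TAD in both lists, the share was 72.7%, beside 77.8% of the 9 genes and 68.3% of all. Among those identical in both lists were the TADs of Nr1i3 (the xenobiotic receptor CAR), Ppara and Srebf1, whose products regulate drug and lipid metabolism. The 31 starts lay at a median of 65.7 kb from a border in 2D and of 62.6 kb in 3D.

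Of the further genes, Nr1h2, Nr1i2 (the xenobiotic receptor PXR) and Gata4 lay in unassigned stretches in both lists. Nr1h3, Hhex, Cebpe, Klf15, Esrra and Prox2 lay outside TADs in 2D and inside a TAD of 120 to 280 kb in 3D. Of all protein-coding gene starts, 10.8% lay inside a TAD in 3D only and 3.95% in 2D only, the latter being the case for 0 of the 31 genes. The TADs of Hnf4g, Nr0b2, Gata6, Creb3l3, Zhx2 and Mlxipl did not match, and each of these 6 was larger in 3D. Mlxipl, which encodes the glucose-responsive factor ChREBP, lay in a TAD of 120 kb with 6 starts in 2D and of 360 kb with 12 in 3D. Creb3l3, a liver factor of the fasting response, lay in a TAD of 200 kb with 12 starts in 2D and of 520 kb with 29 in 3D, and Nr0b2, the bile acid-induced repressor SHP, in TADs of 120 and 280 kb. Of the 5017 protein-coding genes whose start lay inside TADs that did not match, 66.3% had the larger TAD in 3D, and of the pair among the 9 genes Cebpb did and Foxa3 did not.

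**Figure D4:**
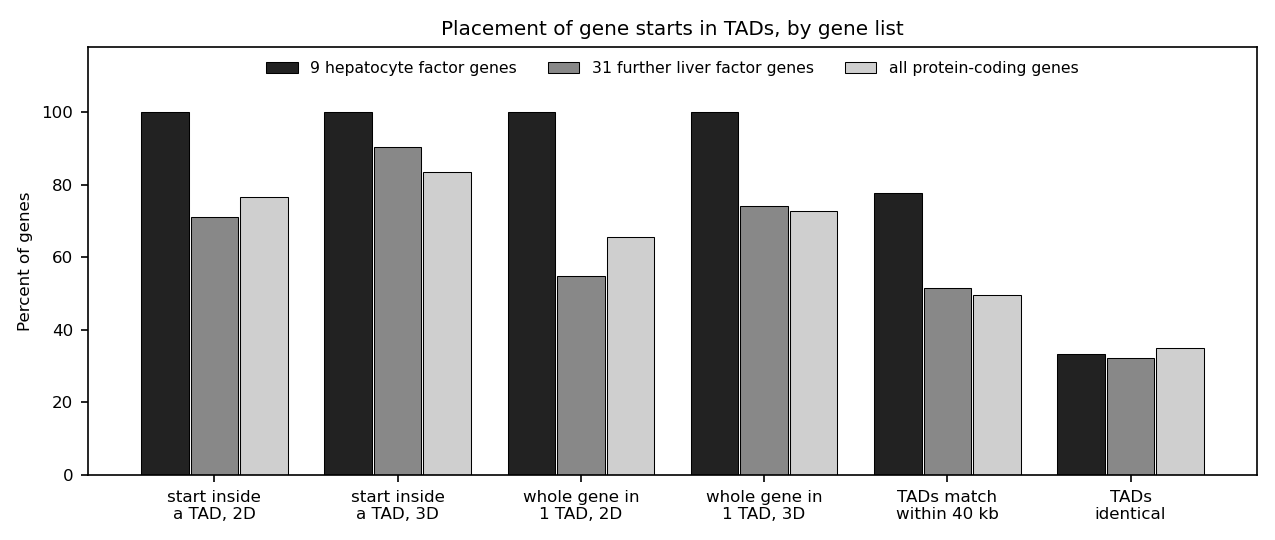
Percent of genes, for the 9 hepatocyte factor genes (black), the 31 further liver factor genes (grey) and all protein-coding genes (light grey), whose start or whole body lies inside a TAD in 2D and 3D and whose 2D and 3D TADs match within 40 kb or are identical. The 9 genes reach 100% for all 4 placements and 77.8% for the match, and the 3 lists lie between 32.3% and 35.1% for identical TADs. Genes whose start lies outside TADs stay in every share and lower it.

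Several of the 9 genes share a chromosome but never a TAD. On chromosome 2, Hnf4a and Cebpb lay 4.18 Mb apart with 16 whole TADs between their starts in 2D and 15 in 3D, and Foxa2 lay 15.5 Mb from Hnf4a with 40 and 39. On chromosome 7, 29 TADs in 2D and 33 in 3D lay between Foxa3 and Cebpa. Of the further list, Cebpg alone shared a TAD with one of the 9 genes, Cebpa, at a distance of 62.7 kb between their starts.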

How the data were processed

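TAD positions from in situ Hi-C of AML12 cells were analysed, as deposited in 1 list per culture. Per the labels and the study's methods, Bowtie2 (version 2.2.9) was used by the authors for mapping to mm10, replicates were combined, matrices of 40 kb bins were balanced with ICE, contact totals per chromosome were made equal between cultures, and Armatus called TADs at a gamma of 0.8. The values are base positions, of a kind other than counts, intensities or ratios. All were multiples of 40000. Equal totals remove a difference in total contacts but not in noise.

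Gene starts, transcripts and exons were taken from GENCODE release M21 and sequence from GRCm38, whose chromosomes held all TADs. Sizes are end minus start, and coordinates are 1-based. Borders were called shared within 40 kb. TADs matched when both ends of those holding the start lay within 40 kb. Python (version 3.11.15), numpy (2.4.6) and matplotlib (3.10.9) were used, and 6 of 6 measures were exact on 3000 simulated TADs. The simulated TADs never met, and in the other list they were identical, 40 kb shorter or absent. TADs that meet, merge or shift at both ends were thus not covered, nor were the gene counts.

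The 9 genes, the further list and all rules were chosen with earlier results of these data known. All 9 genes were named. Of other genes in their TADs, all were named when at most 8, and of the further list those without a match or outside TADs, with 3 identical ones added after their values were seen. Alternatives were tolerances of 0 and 80 kb, reciprocal overlap, other gene positions, border definitions and gene counts, and TADs of at least 200 kb. The contact matrices were not analysed here.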

Additional observations from a re-analysis of the deposited data

How the results depend on the processing

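Of 49 values under the alternatives fixed at the start, 43 stayed the same and 6 moved. A count was taken as the same within 1.5 times and a median in kb within 40 kb. At exactly the same position, 3 of the 9 genes lay in a shared TAD in place of 7, which follows from the stricter rule. The 7 genes were the same within 80 kb, under reciprocal overlap of 80% or 50%, with the principal transcript or the midpoint of the gene, and with TADs of at least 200 kb, Foxa3 and Cebpb being left out each time. With TADs of at least 200 kb the median size in 3D was 480 kb in place of 360 kb, because the TAD of Foxa3 drops out. Counting only positions where 2 TADs meet, the nearest 3D border was shared for 4 genes in place of 9 (6 in place of 8 in 2D; by this rule 64.7% of all starts in 3D and 76.5% in 2D), and the median distance in 2D was 161 kb in place of 107 kb, with 119 kb in 3D under either definition. The order of 2D and 3D was thus turned for both values, as it was for shared nearest borders at exactly the same position, with 7 in 2D and 6 in 3D. With all annotated genes counted, the median TAD held 10 gene starts in 2D and 11 in 3D. Without Foxa3 and Cebpb, an alternative added after the data were seen, all 6 medians stayed the same by this measure. The median distance was then 119 kb and the median number of starts 4 in both lists, so neither differed between 2D and 3D. With the midpoint of the gene, the median distance was 93.9 kb in both lists. The looser motif, also added after the data were seen, was found at 12 of the 26 border positions. It was found at 46.8% of all 2D borders, at 46.9% of all 3D borders and in 31% of all windows.

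No paired analysis was possible because only 1 TAD list per culture was analysed, made from pooled replicates. For the same reason no replicate was left out, and no difference between cultures was set against one between replicates.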

Other observations

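The TADs of the 9 genes also held genes that are not protein-coding. The TAD of Foxa2, with no other protein-coding start, held 1 long non-coding RNA gene, 9030622O22Rik, in both lists. That of Prox1 held 5 in both lists, the antisense gene Prox1os among them. The antisense gene Hnf4aos started in the TAD of Hnf4a in both lists. At Cebpb, the number of long non-coding RNA genes in the TAD was 5 in 2D and 8 in 3D, and the 5 of the 2D TAD were all among the 8.

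The TADs of Foxa3 and Cebpb, which did not match, had the highest GC content of the 9 in both lists. The GC content was 50.4% in 2D and 52.0% in 3D for Foxa3, and 52.6% and 51.8% for Cebpb, above that of at least 95.9% of all TADs. The other 7 genes ranged from 39.4% (Foxa1) to 49.1% (Cebpa), and the median TAD had 43.5% in 2D and 43.6% in 3D. Sites of MboI, the enzyme of the Hi-C protocol, numbered 2.33 per kb in 2D and 2.27 in 3D for Foxa3, and 2.35 and 2.38 for Cebpb, against a median of 2.45 in each list. The TAD of Cebpa, which was identical in both lists, had 2.31. The part of base composition in the difference between the lists was not tested.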
